A study of Drosophila melanogaster with 16 samples.

Results

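The 8 genes described here, per, tim, vri, Pdp1, cwo, Clk, cyc and cry, make up the core circadian clock of Drosophila melanogaster, together with its blue-light receptor. All probe sets annotated to 1 of these symbols were taken, which gave 10 probe sets of the 18952 on the array: 7 for the genes whose transcripts peak near dusk (per, tim, vri, Pdp1 and cwo), 2 for those that peak near dawn (Clk and cry) and 1 for cyc, which does not cycle. All 10 were among the 18907 probe sets tested; tim and cwo have 2 probe sets each and the other 6 genes have 1.

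Levels were measured in 16 single whole flies, 4 in each of 4 groups, all labelled as adults of 3 to 5 days, which by the design text is the age at which exposure began. The dmDys flies came from UASdmDysC-term crossed with the ubiquitous driver P-tub-Gal4 and express double-stranded RNA against all dystrophin isoforms in every tissue; the WT flies were the P-tub-Gal4 driver alone, so that the driver is shared by all groups. CH-dmDys flies were carried up a mountain of 6194 m over 16 days in insulated vials, at an oxygen pressure equal to 16.3% and, at the summit, 9.9% oxygen at sea level (hypobaric hypoxia, given as 2 weeks). CH-WT flies were given the same oxygen course for 2 weeks in a chamber at normal pressure, and the normoxic dmDys and normoxic WT flies breathed room air. The design text gives 25 C and molasses vials for the mountain and for the laboratory alike. The paper, however, allows that temperature, humidity and barometric pressure may have had some influence in the mountain flies. By this design, genotype and the kind of hypoxia cannot be told apart between the CH groups. In the dmDys comparison, travel, place and any difference in temperature, humidity or pressure cannot be told apart from CH. Neither the hour at which flies were frozen nor the light regime is given in the sources used here, and clock transcripts change with both.

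The clock is a feedback loop. The proteins CLOCK (Clk) and CYCLE (cyc) together switch on per, tim, vri, Pdp1 and cwo through E-box sequences in their promoters, and these transcripts reach their peak around dusk. PERIOD and TIMELESS (per, tim) accumulate at night, enter the nucleus and shut CLOCK and CYCLE off, CWO competes for the same E-boxes, and VRI represses Clk while PDP1 activates it, so that Clk itself peaks near dawn. CRYPTOCHROME (cry) absorbs blue light and sends TIMELESS to degradation. The loop runs in pacemaker neurons of the brain, in photoreceptors, in glia and in many peripheral tissues such as fat body and Malpighian tubules, and a whole fly gives the sum of all of them. In such bulk samples fewer cells of a type and less RNA per cell cannot be told apart.

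Several properties of the arrays touch the results below. Values are log2 of the authors' GCRMA intensities. The arrays of the 2 genotypes differ in their lowest value (2.06 in dmDys, 1.95 in WT) and in their upper quartile (10.18 to 10.28 in dmDys, 8.99 to 9.09 in WT), so levels of dmDys and WT flies were set side by side and not tested. A pair of WT flies, CH-WT replicate 7 and replicate 5 of normoxic WT, stood apart from the rest: their mean level of testis transcripts was 2.33 and 2.31, against 13.3 to 13.6 in the other 6 WT flies. These low-testis flies were each the highest of their group for 9 of the 10 clock probe sets, and for 65.2% and 75.1% of all probe sets. The 3′ minus 5′ log2 value of 3 control transcripts (Act5C, Gapdh and eIF-4a), which is larger where RNA or its copies are shorter, was 2.95 to 4.09 in CH-dmDys and 5.76 to 10.34 in normoxic dmDys, with no overlap. It was 4.51 to 6.78 in CH-WT and 6.97 to 7.34 in normoxic WT, also with no overlap. Dys, the gene targeted in the dmDys flies, had 5 probe sets, 4 of them below log2 5 in every group; the bright one read 8.21 to 9.13 in CH-dmDys, 5.89 to 9.62 in normoxic dmDys, 7.97 to 9.27 in CH-WT and 7.67 to 9.82 in normoxic WT, and these ranges overlap. The position of this probe set relative to the region targeted by the RNA is not given in the sources used here.

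To determine which clock transcripts differed after CH in dystrophin-deficient flies, CH-dmDys flies were compared with normoxic dmDys flies. Clk was 5.09-fold higher, both probe sets of cwo were higher by 2.46-fold and 13.3-fold, and Pdp1 was 3.22-fold lower. A probe set is called here at a Benjamini-Hochberg adjusted p under 0.05 over all probe sets and a difference of at least 2-fold. By this rule 3 of the 10 clock probe sets rose and 1 fell, where 5.46% of all probe sets rose and 4.07% fell. These shares include dim probe sets. In a fit of only the 9453 probe sets brighter than the median, 1107 rose and 799 fell. Of the 8 clock probe sets in that fit, 3 rose and 1 fell. The CH-dmDys and normoxic dmDys flies did not overlap for 5 probe sets that were higher in CH-dmDys (Clk, cyc, the dim one of tim and both of cwo) and 1 that was lower (Pdp1). Over all probe sets, 13.9% were higher with no overlap and 15.2% lower. The median log2 difference of the 10 clock probe sets was 0.67 and that of all probe sets 0.00.

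**Figure D1:**
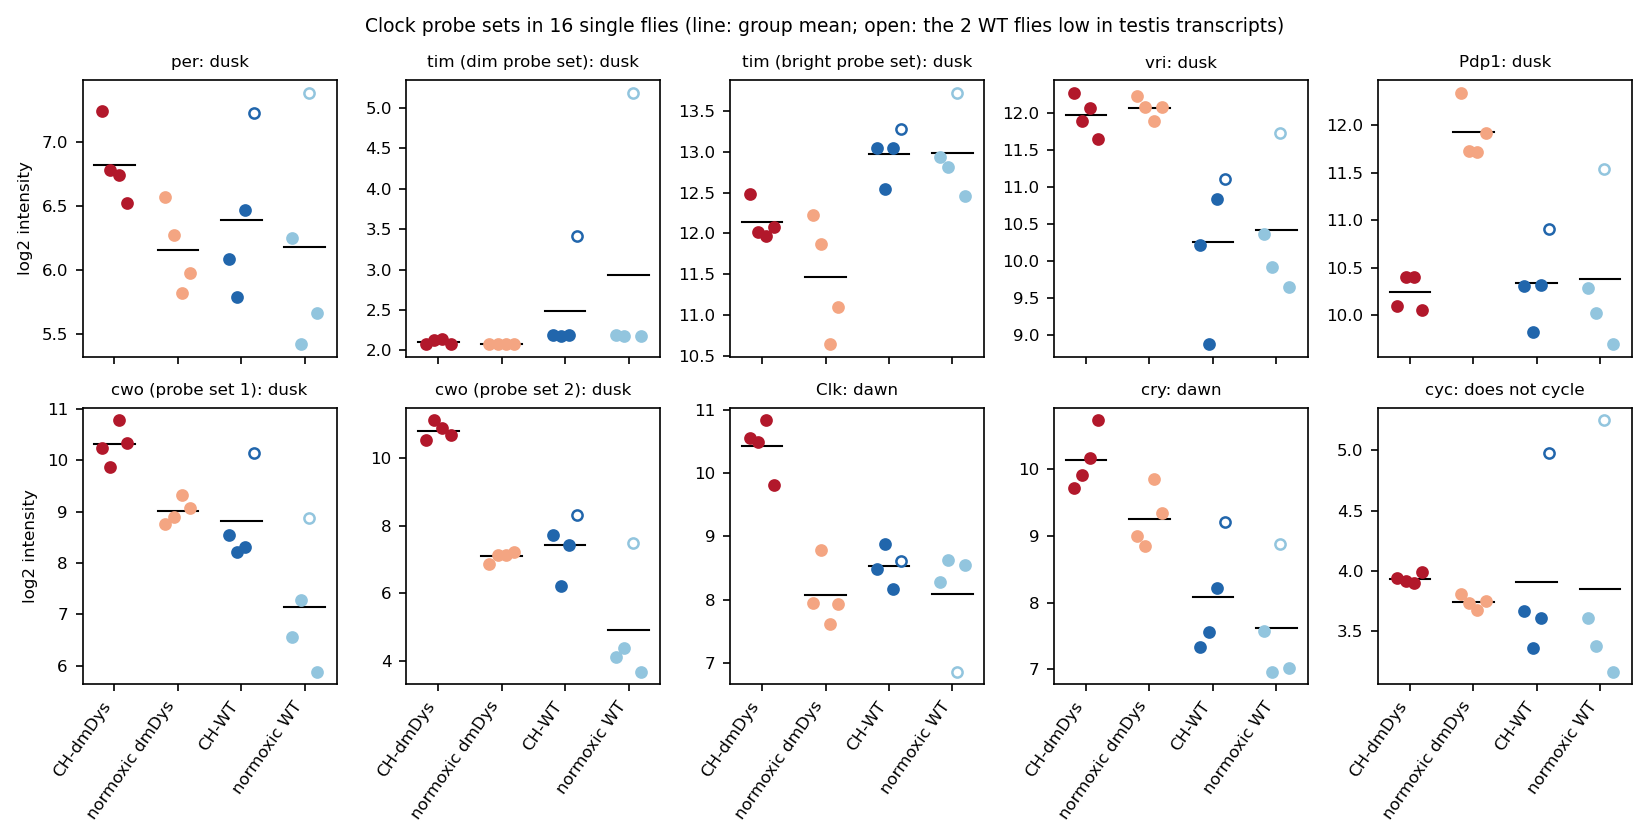
Log2 intensity (vertical axes, each on its own scale) of the 10 clock probe sets in the 16 single flies of the 4 groups; each point is a fly, lines are group means, and open points are CH-WT replicate 7 and normoxic WT replicate 5. The 4 CH-dmDys flies lie above the 4 normoxic dmDys flies for Clk and both probe sets of cwo and below them for Pdp1, and the open points are the highest of their group everywhere except for Clk.

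Clk encodes the activator at the centre of the loop. Its probe set (1631948_s_at) read 10.55, 10.50, 10.83 and 9.81 in CH-dmDys replicates 5, 6, 7 and 8, and 7.95, 8.78, 7.62 and 7.94 in normoxic dmDys replicates 6, 7, 8 and 10. Every CH-dmDys fly lay above every normoxic dmDys fly, with 9.81 as the lowest of the former and 8.78 as the highest of the latter. The group means were 10.42 ± 0.44 (SD, n = 4) and 8.07 ± 0.50 (SD, n = 4), a log2 difference of 2.35 (SE, the standard error, 0.32, adjusted p = 0.0059 from limma). With each fly left out in turn, this difference ranged from 2.20 to 2.58 and the call was kept in all 8 fits.

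Pdp1 encodes the activator of Clk transcription in the second loop of the clock, and forms of the protein are also known as regulators of muscle genes. Its probe set (1627436_s_at) read 10.10, 10.40, 10.40 and 10.06 in the CH-dmDys flies and 12.34, 11.73, 11.72 and 11.92 in the normoxic dmDys flies, in the order of replicates given above. All normoxic dmDys flies were above all CH-dmDys flies, and Pdp1 was the only clock gene called lower. The means were 10.24 ± 0.19 and 11.93 ± 0.29 (SD, n = 4 each), a log2 difference of -1.69 (SE 0.17, adjusted p = 0.0026), and leaving out each fly gave -1.76 to -1.55. The suffix _s_at marks probes that match more than 1 transcript, and the forms of Pdp1 were not resolved. The only probe sets of Clk and of vri carry the same suffix, so this limit holds for them too. Among 4 flight muscle markers, Act88F, an actin of flight muscle, fell by 1.65 (adjusted p = 0.022) and the other 3 were not called; the mean level of the 4 was 11.2 to 12.4 in CH-dmDys and 12.0 to 13.3 in normoxic dmDys, and its part in the change of Pdp1 was not tested.

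Next, cwo encodes a repressor that binds the E-boxes used by CLOCK and CYCLE. Its brighter probe set (1623277_at) read 10.24, 9.87, 10.78 and 10.34 in the CH-dmDys flies and 8.75, 8.89, 9.32 and 9.07 in the normoxic dmDys flies. The other (1631722_at) read 10.56, 11.13, 10.90 and 10.69 in CH-dmDys and 6.88, 7.13, 7.13 and 7.22 in normoxic dmDys. Both probe sets were higher in every CH-dmDys fly than in any normoxic dmDys fly. The log2 differences were 1.30 (SE 0.22, adjusted p = 0.011) and 3.73 (SE 0.14, adjusted p = 0.00012), and 130 of the 18907 probe sets had a larger increase than the second. The 2 probe sets thus disagreed in the size of the change: their difference within a fly shifted by 2.43 on the log2 scale between the groups, from -1.92 ± 0.19 in normoxic dmDys to 0.51 ± 0.51 in CH-dmDys (SD, n = 4 each). The first of them was no longer called in a fit of all 4 groups together (adjusted p = 0.27).

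All 4 calls, for Clk, Pdp1 and the 2 probe sets of cwo, were lost when the 3′ minus 5′ value was added as a covariate. Since this value did not overlap between the dmDys groups, the fit cannot tell its part from that of CH. In that fit 29 of all probe sets were called, and the log2 differences were 3.38 for Clk (adjusted p = 0.17), -1.49 for Pdp1 (adjusted p = 0.32), and 0.75 and 3.48 for cwo (adjusted p = 0.84 and 0.053), all with the direction of the fit without the covariate.

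The other clock genes were not called in dmDys flies. For per, which with tim forms the negative arm of the loop, the 4 CH-dmDys flies read 7.24, 6.78, 6.74 and 6.52 and the normoxic dmDys flies 6.57, 6.27, 5.82 and 5.97. These groups overlapped by 1 fly, and the log2 difference was 0.66 (95% interval 0.14 to 1.19, adjusted p = 0.085). The bright probe set of tim (1634188_a_at) read 12.49, 12.02, 11.96 and 12.08 in CH-dmDys and 12.23, 11.87, 10.65 and 11.10 in normoxic dmDys. The normoxic flies were spread more widely for tim (SD 0.72) than the CH-dmDys flies (SD 0.24), and the difference of 0.68 was not called (95% interval -0.21 to 1.57, adjusted p = 0.29). Adding the 3′ minus 5′ value as a covariate gave log2 differences of 1.48 for per and 2.38 for this tim probe set. Neither was called (adjusted p = 0.28 and 0.14 in limma). The dim probe set of tim (1631468_a_at) lay between 2.08 and 2.14 in all dmDys flies, at the floor of the arrays, so that its small difference in level cannot be read.

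The repressor gene vri had nearly the same mean in both groups, 11.97 ± 0.27 in CH-dmDys and 12.06 ± 0.14 in normoxic dmDys (SD, n = 4 each), and the 95% interval of the difference ran from -0.45 to 0.25. For cry, the photoreceptor gene, the CH-dmDys flies read 9.71, 9.91, 10.17 and 10.73 and the normoxic flies 8.99, 8.84, 9.85 and 9.34. The highest normoxic fly, replicate 8, lay above the lowest CH-dmDys fly. The log2 difference was 0.87 (95% interval 0.13 to 1.61, adjusted p = 0.10). If that normoxic fly was left out it was 1.07 and called (adjusted p = 0.0498), with array weights it was 1.23 and called (adjusted p = 0.016), and with the 3′ minus 5′ value as a covariate it was -0.36 (adjusted p = 1.00). The partner of Clk, cyc, lay low on the arrays, at 3.90 to 3.99 in CH-dmDys and 3.67 to 3.80 in normoxic dmDys. The groups did not overlap, but the log2 difference of 0.20 (SE 0.03, adjusted p = 0.011) was under the 2-fold limit.

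Markers of cells that hold clocks did not all move in 1 direction, and their part in the changes of clock genes was not tested. The mean level of 3 photoreceptor genes was 13.3 to 13.5 in CH-dmDys and 12.5 to 13.0 in normoxic dmDys, with trp called higher and inaD and Arr2 not called. Of 3 glia markers, repo, a transcription factor of glia, rose by a log2 difference of 1.69 (adjusted p = 0.0036 in limma). The other glia markers, nrv2 and wrapper, differed by 0.19 and -0.34 and were not called. The mean of the 3 was 9.68 to 10.03 in CH-dmDys against 9.29 to 9.52 in normoxic dmDys. Of 4 neuron markers, nSyb rose by 1.09 and brp fell by 2.38, and their mean overlapped, at 8.61 to 8.83 and 8.71 to 9.07. Of 5 fat body markers only Lsp2 was called, higher by 1.72 from a level of 2.09 in normoxic dmDys. No marker of testis (8 genes), accessory gland (5 genes) or eggs and yolk (6 genes) was called, and the mean level of the eggs and yolk list was 2.08 to 2.33 in CH-dmDys and 2.09 to 2.19 in normoxic dmDys.

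CH-WT flies were then compared with normoxic WT flies to see whether the same transcripts moved in flies with dystrophin. No clock probe set was called, and neither was any of the 18907 probe sets (0%); 232 of them had an unadjusted p under 0.05 in limma. No clock probe set was without overlap between the WT groups, where 0.476% of all probe sets were higher with no overlap and 0.397% lower. The median log2 difference of the 10 clock probe sets was 0.13 and that of all probe sets -0.00.

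The 2 probe sets of cwo had the largest differences of the clock in WT. The brighter read 8.55, 8.22, 8.32 and 10.13 in CH-WT replicates 3, 5, 6 and 7, and 6.56, 7.27, 8.87 and 5.89 in normoxic WT replicates 2, 3, 5 and 6. The other read 7.73, 6.20, 7.41 and 8.33 in CH-WT and 4.09, 4.38, 7.49 and 3.67 in normoxic WT. In both, the normoxic WT fly that reached into the range of the CH-WT flies was replicate 5, a low-testis fly. The log2 differences were 1.66 (95% interval -0.17 to 3.49) and 2.51 (95% interval 0.21 to 4.80), with an adjusted p of 1.00 in limma for both. Only 45 of 18907 probe sets had a larger increase than the second. Adding the 3′ minus 5′ value as a covariate gave log2 differences of 0.66 and 1.74, and neither was called. Without the low-testis flies the WT groups did not overlap for either probe set of cwo, as for 5.04% of all probe sets that were higher, and the differences were 1.79 and 3.06 (adjusted p = 0.72 and 0.53).

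For the other clock genes the WT differences were small beside their intervals. Clk read 8.48, 8.87, 8.17 and 8.61 in CH-WT and 8.28, 8.63, 6.87 and 8.55 in normoxic WT. The low value is that of normoxic WT replicate 5, and the other 7 WT flies lay between 8.17 and 8.87. The log2 difference was 0.45 (95% interval -0.57 to 1.47), and 0.02 without the low-testis flies. Pdp1 read 10.31, 9.83, 10.32 and 10.90 in CH-WT and 10.29, 10.02, 11.54 and 9.70 in normoxic WT, a difference of -0.05 (95% interval -1.12 to 1.03). The range of the CH-WT flies lay within that of the normoxic WT flies. The differences of per, tim, vri, cry and cyc lay between -0.45 and 0.47 with adjusted p of 1.00, and intervals such as that of vri (-1.75 to 1.43) were wide enough to hold changes of more than 2-fold in either direction. Fat body markers averaged 9.64 to 13.1 in CH-WT and 9.22 to 9.90 in normoxic WT, glia markers 8.07 to 10.2 and 8.72 to 10.3, and their part in the WT levels of clock genes was not tested. The fat body average moved with Lsp2 and Fbp1, whose log2 differences were 5.15 and 5.71, the latter from a mean of 2.23 in normoxic WT. Those of apolpp, Lpin and FASN1 were 0.16, 0.17 and 0.09, and no fat body marker was called.

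**Figure D2:**
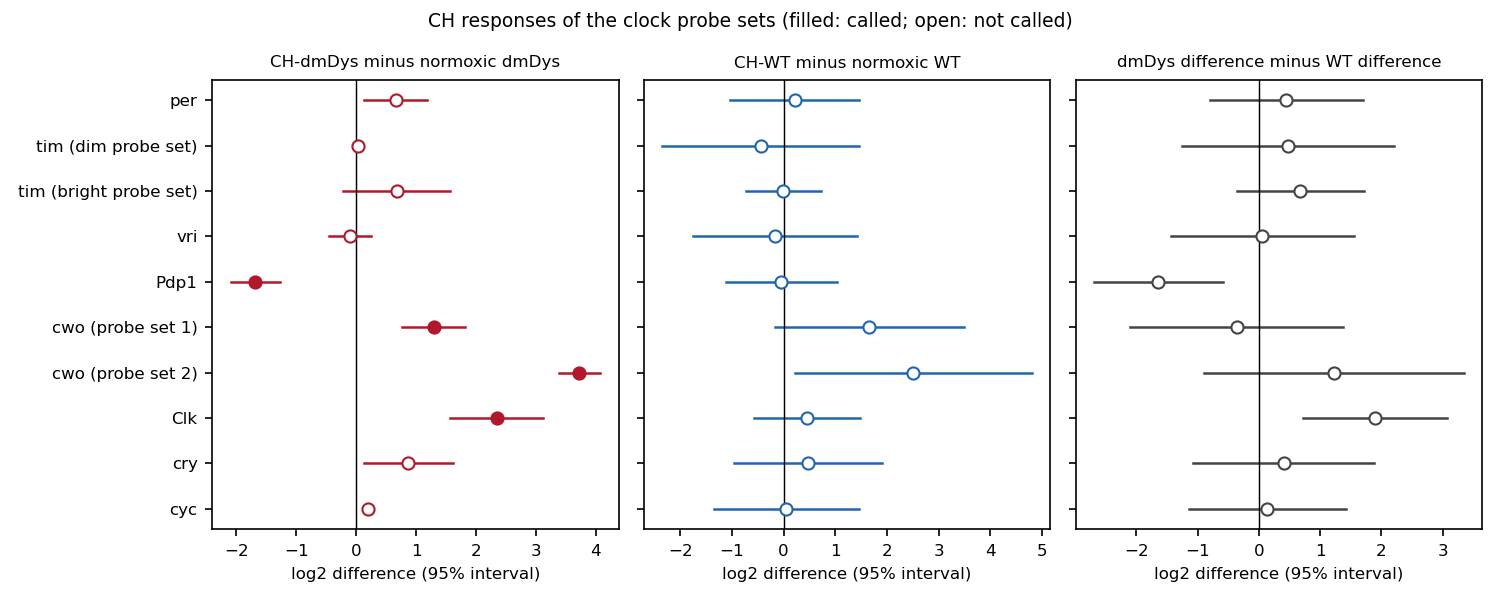
Log2 differences (horizontal axes) of the 10 clock probe sets with their 95% intervals for CH-dmDys minus normoxic dmDys, CH-WT minus normoxic WT, and the dmDys difference minus the WT difference; filled points are called and open points are not. In dmDys the 4 called points are Pdp1 at -1.69, cwo at 1.30 and 3.73, and Clk at 2.35, and no point is filled in the other panels.

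Whether the CH response differed between dmDys and WT was tested as an interaction over all 16 flies, in which genotype and kind of hypoxia are tested together. Of all probe sets 0.894% were called, and no clock probe set was among them. The largest differences between the responses were those of Clk, 1.90 (95% interval 0.73 to 3.07, adjusted p = 0.17), and Pdp1, -1.64 (95% interval -2.69 to -0.59, adjusted p = 0.19). With the low-testis flies left out, both were called, at 2.33 for Clk (adjusted p = 0.013) and -1.84 for Pdp1 (adjusted p = 0.0050), where 3.69% of all probe sets were called. Without normoxic WT replicate 5 alone they were also called, at 2.30 (adjusted p = 0.013) and -2.02 (adjusted p = 0.0094), and with only CH-WT replicate 7 left out they were not (1.92 and -1.45, adjusted p = 0.15 and 0.20). The calls for Clk and Pdp1 thus turned on 1 WT fly. For cwo the responses of the genotypes differed by -0.36 (95% interval -2.10 to 1.38) and 1.22 (95% interval -0.90 to 3.34), which does not show that they were alike.

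The order of the mean levels across the 4 groups was not shared by all clock genes. For Clk, and as deposited also for per and cyc, it ran from CH-dmDys (10.42 for Clk) through CH-WT (8.53) and normoxic WT (8.08) to normoxic dmDys (8.07), and the Clk levels of CH-dmDys lay apart from those of CH-WT, with the other neighbours overlapping. When all 16 arrays were quantile normalized together the order of Clk was kept, at 9.79, 9.09, 8.71 and 7.61, but CH-dmDys and CH-WT then overlapped. Pdp1 was highest in normoxic dmDys (11.93), followed by normoxic WT (10.39), CH-WT (10.34) and CH-dmDys (10.24), and all neighbours but the first 2 overlapped. For Pdp1 after quantile normalization, CH-dmDys (9.61) lay apart below CH-WT (10.90), and normoxic dmDys (11.42) and normoxic WT (10.94) overlapped. For the bright probe set of tim both WT groups had a mean of 12.98, above CH-dmDys (12.14) and normoxic dmDys (11.46) on both scales. As deposited, all CH-WT flies lay above the CH-dmDys flies, whereas normoxic WT, with a lowest fly of 12.46, reached just below the highest CH-dmDys fly of 12.49. For vri the dmDys groups were above the WT groups on both scales, with overlap between neighbours. For cry, too, the dmDys groups (10.13 with CH and 9.26 in normoxia) had higher means than the WT groups (8.08 and 7.61), with overlap between neighbours. The probe set of cwo with the larger change was highest in CH-dmDys (10.82), apart from the next group on both scales, and lowest in normoxic WT (4.91). The order of per, cyc and the brighter probe set of cwo changed with the scale, and so did that of the 2 WT groups for tim.

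Dusk and dawn genes were then compared within each fly, as the mean of the 5 dusk genes minus the mean of Clk and cry, with the brightest probe set of each gene. Intensities of different probe sets are not on 1 scale, so that a single value has no meaning by itself and only differences between flies do. This value was 0.34, -0.01, -0.11 and -0.14 in the CH-dmDys flies and 1.95, 1.36, 1.14 and 1.39 in the normoxic dmDys flies. All CH-dmDys flies lay below all normoxic dmDys flies, with means of 0.02 ± 0.22 and 1.46 ± 0.34 (SD, n = 4 each), a shift of -1.44. The mean of the dawn genes was 1.61 higher in CH-dmDys than in normoxic dmDys, whereas that of the dusk genes was 0.17 higher, with cwo higher and Pdp1 lower. The dawn mean holds cry, whose difference was not called and turned negative with the 3′ minus 5′ covariate. The dusk side depended on this covariate too. With it the log2 differences of per, tim (bright probe set) and vri were 1.48, 2.38 and 0.30. Without it they were 0.66, 0.68 and -0.10, and none was called in either fit. The dusk minus dawn value was not computed with the covariate, so how much of the shift would remain is not known. With per, tim and vri as the only dusk genes the shift was -1.20. No test was made of this value, since it is a score over genes that were chosen with earlier results known.

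In WT flies the dusk minus dawn value was 1.73, 0.84, 1.60 and 1.62 in CH-WT and 1.35, 1.29, 2.77 and 0.88 in normoxic WT. The groups overlapped, and the shift of -0.13 was smaller than the SD in either group (0.41 and 0.83). Leaving out the low-testis flies gave 0.22, of the other sign. The dawn genes were 0.46 and the dusk genes 0.33 higher in CH-WT than in normoxic WT, and 0.27 and 0.48 higher without these 2 flies.

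**Figure D3:**
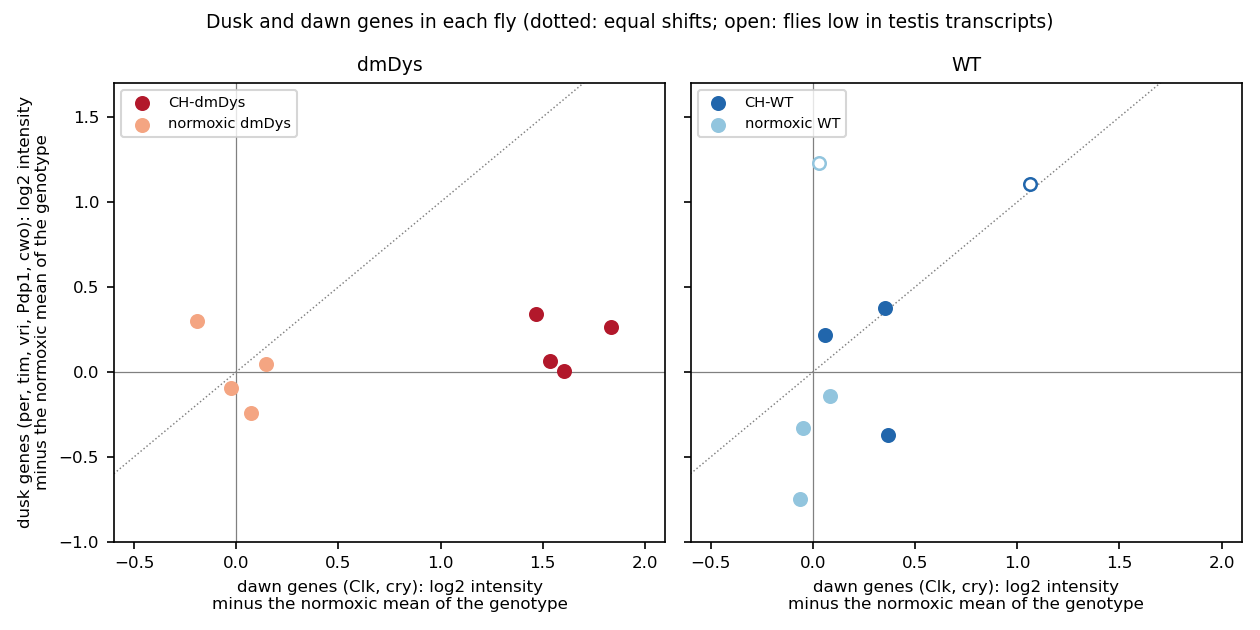
Mean log2 intensity of the dusk genes (vertical) against that of the dawn genes (horizontal) in each fly, both as differences from the normoxic mean of the same genotype; the dotted line marks equal shifts and open points are the 2 WT flies low in testis transcripts. The 4 CH-dmDys flies lie 1.47 to 1.83 to the right of the normoxic mean and 0.00 to 0.34 above it, whereas in WT the CH and normoxic flies overlap on both axes.

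The genes whose levels followed tim and Clk most closely were looked up among 7495 other genes with a mean log2 level of at least 5, by Pearson correlation over the 16 flies after the mean of each genotype was subtracted. The points share arrays, and for Clk they fall into groups by treatment, so the values describe these flies only. Most like tim were Dys (r = 0.93), CG6610 (0.91), promL (0.89), CG17930 (0.84) and CG12605 (0.84), and the values over the 14 flies that are not low in testis transcripts were 0.92, 0.92, 0.87, 0.79 and 0.84. The bright Dys probe set read 9.62, 7.41, 5.89 and 7.09 in normoxic dmDys replicates 6, 7, 8 and 10, so that the flies with the highest and the lowest tim were also those with the highest and the lowest Dys. Of the clock genes per was closest to tim, with r = 0.82 over 16 and over 14 flies. Most like Clk were Dpm1 (r = 0.87), Hpd (0.87), CG34325 (0.87), TfIIFbeta (0.85) and Ubc6 (0.84), with 0.85, 0.87, 0.85, 0.90 and 0.82 over 14 flies. Pdp1 ran opposite to Clk, at r = -0.88 over 16 flies and -0.90 over 14.

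Genes that act on or below the clock were taken as 4 further lists, each gene by its brightest probe set. Over all 11982 genes measured in this way, 6.85% were called higher and 5.32% lower in CH-dmDys than in normoxic dmDys, and the median log2 difference was -0.00. Among kinases, phosphatases and factors that degrade clock proteins, 11 of 16 genes were measured, none was called, and the median difference was 0.26. Of these, CkIalpha, a casein kinase, had the adjusted p furthest below 0.05 (0.0063) with a log2 difference of 0.52, under the 2-fold limit. Among clock-controlled output transcripts of the head, 9 of 12 were measured, none was called and the median was 0.27.

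Among regulators of clock transcription or translation, 10 of 12 were measured, 2 rose, none fell and the median was -0.17. The coactivator nej (CBP) read 11.60, 11.19, 11.32 and 11.28 in the CH-dmDys flies and 9.14, 8.95, 8.93 and 9.36 in the normoxic dmDys flies, which makes a log2 difference of 2.25 (SE 0.13, adjusted p = 0.00043). The groups of nej were far apart; a second probe set of nej lay at the floor. For tyf, which promotes translation of per in pacemaker neurons, the flies read 8.17, 8.74, 8.47 and 7.88 in CH-dmDys and 5.55, 5.53, 5.81 and 5.64 in normoxic dmDys. This is a difference of 2.68 (SE 0.19, adjusted p = 0.00087), whereas 2 other probe sets of tyf differed by 0.28 and 0.86 and were not called.

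Among clock neuron peptides, receptor and channels, all 11 genes had a probe set, 3 rose, 1 fell and the median was 0.00. That median was the value of Fer2, which was kept in this list but encodes no peptide, receptor or channel. Group means of Pdfr, na, CCHa1 and Fer2 were 2.08 to 2.19 in dmDys flies, at the floor of the arrays. Differences of these genes cannot be read. The neuropeptide gene Dh31 read 8.97, 9.16, 9.27 and 9.55 in CH-dmDys and 7.30, 7.09, 6.53 and 7.07 in normoxic dmDys (log2 difference 2.24, SE 0.20, adjusted p = 0.0019). NPF, neuropeptide F, read 9.78, 9.53, 10.11 and 9.24 in CH-dmDys and 7.83, 8.98, 6.86 and 6.45 in normoxic dmDys, a difference of 2.14 (SE 0.58, adjusted p = 0.047). The CH-dmDys flies were above the normoxic flies for both peptides, but the call of NPF was kept in only 1 of 8 fits that left out a fly (adjusted p from 0.018 to 0.12). The potassium channel gene slo, an output of the clock in pacemaker neurons, fell by 1.79 (SE 0.18, adjusted p = 0.0027 in limma). Its level went from 8.55 ± 0.32 in normoxic dmDys to 6.77 ± 0.18 in CH-dmDys (SD, n = 4 each). In whole flies the levels of the genes in this list are sums over all tissues, and are not readings of clock neurons alone. ITP, a peptide of the evening neurons, rose by 1.22 (adjusted p = 0.0044). Pdf, the main peptide of the morning neurons, lay near the floor, with means of 2.50 in CH-dmDys and 3.15 in normoxic dmDys. Its difference of -0.65 was not called (adjusted p = 0.18 in limma) and cannot be read at such levels.

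These 6 calls too were lost with the 3′ minus 5′ value as a covariate, with adjusted p from 0.095 to 0.37. The log2 differences in that fit were 2.42 for nej, 2.31 for tyf, 2.83 for Dh31 and 1.23 for ITP, whereas NPF was at 4.25 and slo at -0.94, under the 2-fold limit. In the fit of all 4 groups together slo (adjusted p = 0.057) and NPF (adjusted p = 0.16) were not called. In WT flies none of the 41 genes measured in the 4 lists was called or had an unadjusted p under 0.05, against 187 of 11982 genes.

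**Figure D4:**
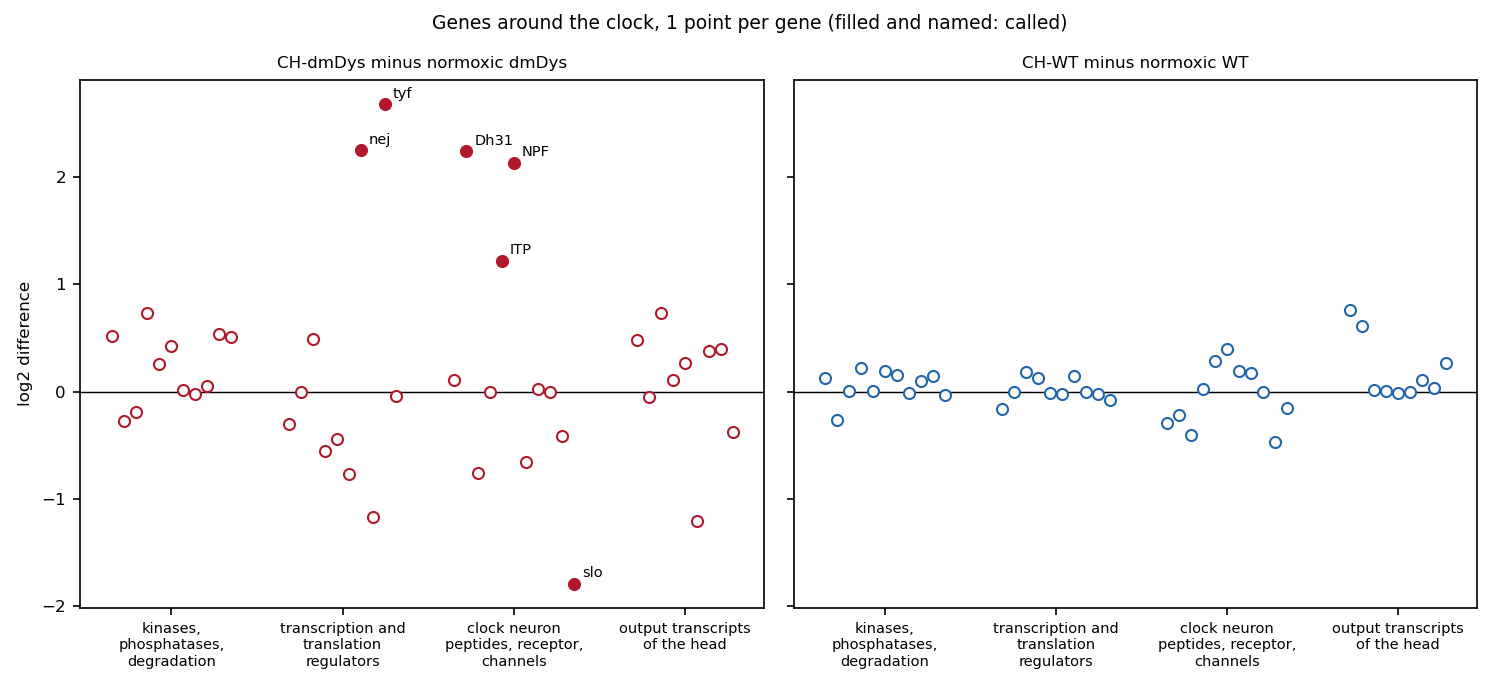
Log2 differences (vertical axis) of 41 genes in 4 lists around the clock, 1 point per gene, for CH-dmDys minus normoxic dmDys and CH-WT minus normoxic WT; filled and named points are called. In dmDys the called genes are nej and tyf among regulators and Dh31, NPF, ITP and slo among neuron peptides and channels, and in WT there is none.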

How the data were processed

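RNA of 16 single whole flies was amplified with the NuGEN Ovation kit and hybridized to Affymetrix Drosophila Genome 2.0 arrays. GCRMA was run by the authors, with analysis in GeneSpring GX; the deposited values are intensities on a linear scale, 1 column per fly, and all 16 columns were used. That the 2 genotypes were normalized separately was read from the values and is not stated. Log2 values needed no offset. Of the 18952 probe sets, 45 control probe sets were left out. Control probe sets of fly transcripts, such as those of Act5C, Gapdh and eIF-4a, and tag controls were kept among those tested. Gene names come from GEO's platform annotation (1 symbol for 13647 probe sets, several for 402, none for 4903).

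Each comparison was fitted with limma 3.58.1 (R 4.3.3) on its own 8 arrays, and the difference between CH responses as an interaction on all 16, with Benjamini-Hochberg adjustment over all 18907 probe sets. The fit was tested on simulated data. The study's own test, SAM, was not run. Groups were taken from titles, with which some other labels conflict (a CH-WT fly has dmDys as its strain, 1 of the CH-dmDys flies lacks a strain, and all normoxic dmDys flies have both CH and normoxic in their source names). Precision is limited by 4 flies a group. The members, lists, 14-fly comparison and naming rule (all clock probe sets, called list genes, the 5 genes most like tim and Clk) were chosen with earlier results of these data known. In the lists Pdf and CkIalpha were named after their values were seen. Promoter sequences were not used here, and no motif was searched. The alternatives were other normalization, centring, array weights, a floor at log2 4, brighter probe sets only, eBayes with trend, a covariate, 1 fit of all groups, no fold limit, and leaving out flies; fits of list genes under these settings and the dusk minus dawn value without 2 WT flies were added later.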

Additional observations from a re-analysis of the deposited data

Results flagged for a closer look

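Of 40 groups of 4 flies (10 clock probe sets in 4 groups), 2 held a fly whose gap to the nearest other fly took up a larger share of the range of its group than Dixon's critical value allows. Chance alone marks about 5% of groups. Both were the dim probe set of tim (1631468_a_at): CH-WT replicate 7 read 3.41, where the other CH-WT flies read up to 2.19, and normoxic WT replicate 5 read 5.19, where the other normoxic WT flies read up to 2.19. These are the 2 flies low in testis transcripts, and the part of that in the tim level was not tested.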

How the results depend on the processing

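In the dmDys comparison the 4 called clock probe sets became 0 with the replicate block (12 calls over all probe sets against 1801) and 0 with the 3′ minus 5′ value as a covariate (29 calls in all), and 3 in 1 fit of all groups (912 calls in all); without a fold limit (3819 calls) they were 5. Whether fly numbers shared by groups pair these flies was not settled, so the block is given as another model. The correlation of deviations between flies of the same number was -0.19, -0.03 and 0.11 for dmDys and 0.67, -0.88 and 0.61 for WT. In WT it cannot decide this, since CH-WT replicate 7 and normoxic WT replicate 5 stood apart from their groups. The block also ended the calls of nej, tyf, Dh31, NPF, ITP and slo (adjusted p from 0.076 to 0.18 in limma). It kept the WT count of clock calls at 0 and the interaction at 0, where 26 probe sets were called in all. In the interaction the clock calls were 2 without both low-testis flies, and 0 to 2 when 1 fly was left out. Over all probe sets the interaction called 86 higher and 83 lower, against 41 and 61 after quantile normalization, 54 in all with array weights, 56 with the covariate, 698 without both flies, 309 without normoxic WT replicate 5 and 321 without CH-WT replicate 7. The WT comparison called 0 probe sets, against 2 with quantile normalization, 6 with array weights, 4 with trend, 10 in 1 fit of all groups and 1 without CH-WT replicate 6, none of them of the clock. No called clock probe set changed direction under any alternative run; among uncalled values the sign changed in 4 of 178 for dmDys, 27 of 188 for WT and 23 of 258 for the interaction. Probe sets near the floor limit what can be said of low levels. They include cyc and the dim probe set of tim. In dmDys flies the list genes Pdf, Pdfr, na, CCHa1, Fer2, jet, unf, CrebB and CG2121 also lay low.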
